A study of Homo sapiens with 6 samples.

Results

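The genes described here encode the core proteins of the spliceosomal snRNPs, the RNA-protein particles that remove introns from pre-mRNA. The set has 52 genes, chosen by symbol from the known make-up of the particles. Earlier results of these data were known when the set was chosen. Each symbol matched 1 row of the 60617 rows in the count table. RNA was sequenced from NCI-H1299, an established lung tumour line known for its lack of p53 protein. Both groups are the same line. The 3 control libraries are labelled wild type and carry Puro in their titles, and the 3 knockdown libraries are labelled as knocked down for FuHsi and carry Sh1. The sources used here do not say what Puro and Sh1 stand for, how FuHsi was knocked down, whether the cells were 1 clone, or whether the replicates were separate cultures, so each p-value reflects only how much these libraries vary, which may be technical variation. The series' title concerns FuHsi and the structure of the nucleolus.

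Library totals ran from 24231515 to 34306849 counts, and every control library was deeper than every knockdown library. No row carries the name FuHsi, so its own transcript was not analysed here. Of the markers checked, KRT8, KRT18 and VIM were at 320 to 1366 CPM (depth-scaled counts, after TMM scaling by the trimmed mean of M values) as group means. EPCAM, CDH1, KRT19, NKX2-1, SFTPB and NAPSA were under 1 CPM and SFTPC was at 0 in every library, so the lung lineage of the label was not seen in these markers. The 12 immune, endothelial and fibroblast markers had group means of at most 1.54 CPM. In bulk RNA, fewer cells with a transcript and less of it per cell cannot be told apart.

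Each snRNP is built on a small nuclear RNA. The U1, U2, U4 and U5 RNAs, and their counterparts in the minor spliceosome, each carry a ring of Sm proteins, whereas U6 RNA carries a related ring of LSM proteins. U1 binds the 5′ splice site and U2 the branch point, after which a preassembled particle of U4, U5 and U6, the tri-snRNP, joins and is rearranged into the catalytic spliceosome. The particles mature in Cajal bodies, and U6 RNA passes through the nucleolus.

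Short stretches of promoter sequence are shown first, because 1 of the words searched for was more frequent in the members' promoters than in those of all genes. Of the 52 genes, 43 had an entry in RefSeq's promoter table (GRCh38.p14), and the 250 bases before each start were searched on both strands for 4 words, none of which contains another. The word CCGGAAG, a core site of ETS-family factors, was present in 22 of the 43 (51.2%), against 14.0% of 15843 protein-coding genes in that table and 18.3% of the 10824 among them that were tested for expression. CCAAT was in 41.9% of the members and 41.7% of the tested genes, GGGCGG in 65.1% and 74.5%, and CACGTG in 6.98% and 11.2%. The stretches below are from the 5 genes with the largest falls among members with CCGGAAG and a single RefSeq start. They are written 5′ to 3′ on the strand of the gene, with CCGGAAG, or CTTCCGG where it lies on the opposite strand, in capitals.
SNRPA1 (chr15:101295344-101295372, minus strand): gcgcgccacgaCTTCCGGcaagaacgccc
SNRPB (chr20:2470813-2470841, minus strand): agtgagctggaCCGGAAGtaggtttctac
SF3A3 (chr1:37990073-37990101, minus strand): gtcccggggcaCTTCCGGcactcgcggaa
SNRPB2 (chr20:16729920-16729948, plus strand): ctgccagagacCCGGAAGcatcgatcggc
SF3A1 (chr22:30356926-30356954, minus strand): aggggacggtcCCGGAAGtgcgccagtcg
The word starts 113, 41, 68, 95 and 49 bases before the RefSeq start in these genes, in that order. Its presence did not sort the members by response: the median log2 fold change was -0.43 for the 22 tested members with it and -0.42 for the 20 without it. A match is a description of the letters and not a bound site.

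Most of these genes were lower in the knockdown libraries. Of the 51 members that passed the filter on low counts, 43 fell, 3 rose and 5 were not called, at a Benjamini-Hochberg adjusted p under 0.05 in the quasi-likelihood test of edgeR. Over all 17223 tested genes, 30.9% were called lower, 30.7% higher and 61.6% either way. The comparison is a description, as the set was chosen with earlier results of these data known. The median log2 fold change of the tested members was -0.41, which is 75.4% of the control level, and that of all tested genes was 0.03. The 3 knockdown values lay wholly below the 3 control values for 43 members, against 32.3% of all tested genes. Members were more abundant, with a median of mean log2 CPM of 6.38 against 3.94 for all tested genes. These shares were not matched for abundance. Changes were mostly modest. Only SNRNP25 and PRPF4 fell by at least 2-fold, a size reached by 3.12% of all tested genes in that direction, and LSM1 alone rose by that much, against 9.16%. The share of all counts taken by the 52 genes was 0.749%, 0.750% and 0.751% in the control libraries and 0.645%, 0.647% and 0.643% in the knockdown libraries. The groups did not overlap, and an exact permutation test gave p = 0.1 (two-sided), the smallest p that 3 against 3 allows.

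**Figure D1:**
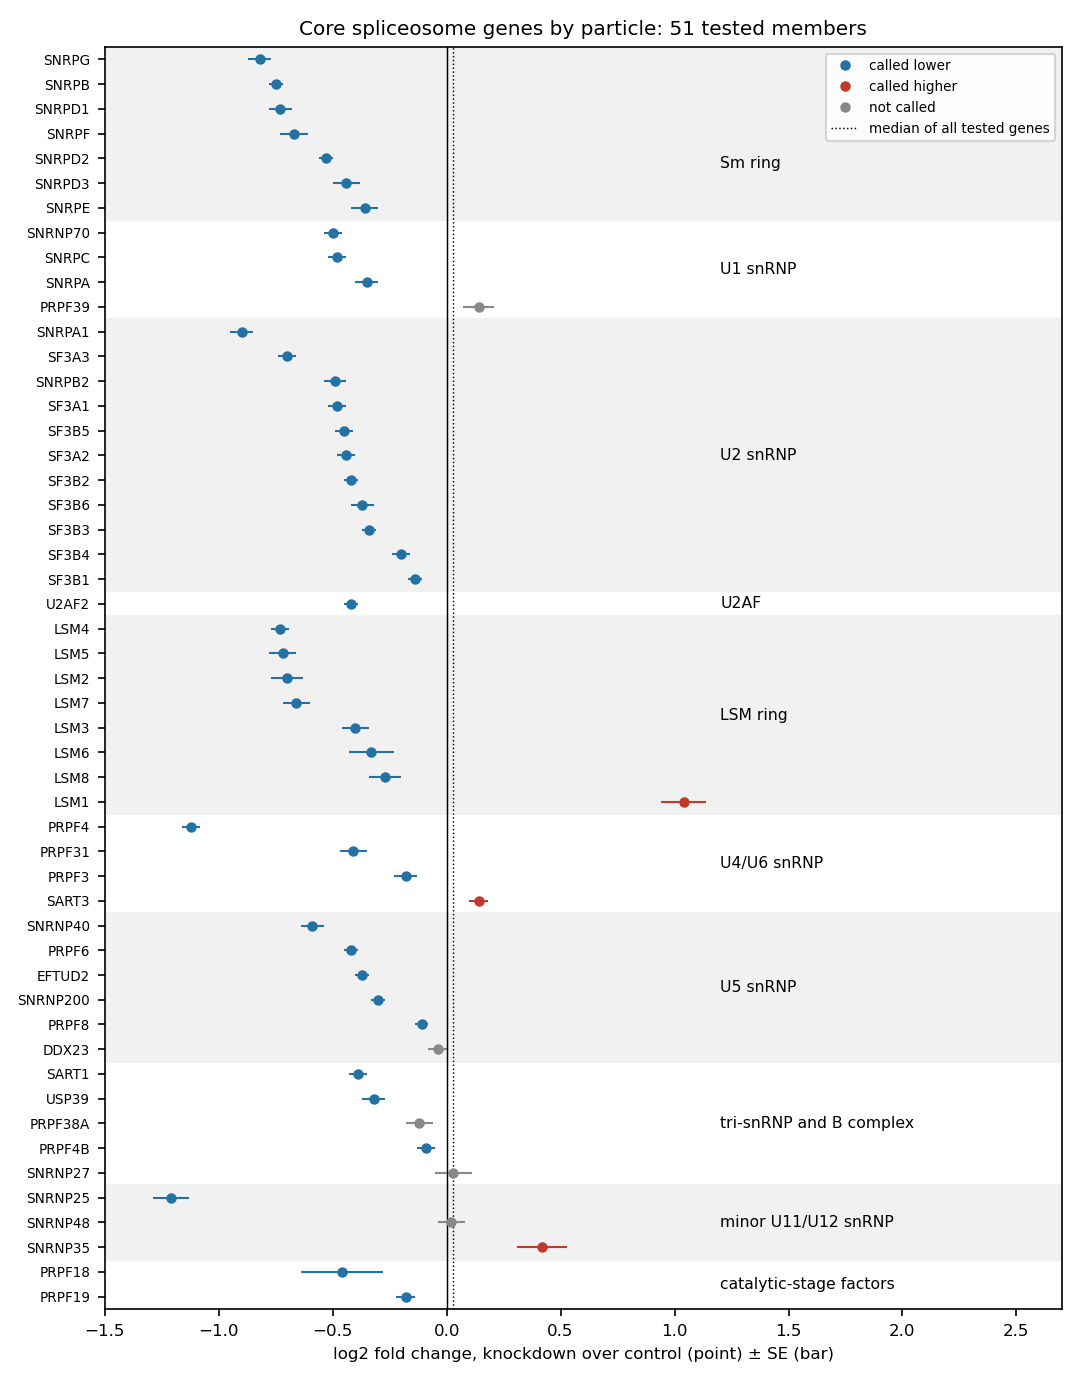
Log2 fold change of knockdown over control (x axis) for the 51 tested genes, ordered within each particle; points are fitted values, bars are ± 1 SE, blue is called lower, red called higher and grey not called, and the dotted line is the median of all tested genes (0.03). All genes of the Sm ring and U2 lie left of 0 on this scale, LSM1 stands alone at 1.04, and SNRNP25 and PRPF4 are the lowest.

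The scale matters for such small differences. Scaling by library size alone, without TMM, moved the median fold change of all genes up by 0.15. It gave 34 members lower and 7 higher, with a median of -0.25. Over all 17223 tested genes it gave 3855 lower and 6986 higher, with a median of 0.18. All directions that follow are on the TMM scale, and members whose sign differs with library size alone are named where they occur. Abundant genes also fell more in these data: across all tested genes the correlation of log2 fold change with mean log2 CPM was -0.274 (Pearson, across genes, which are not independent replicates). Once trends with the length, GC content and abundance of transcripts were taken out, the members' median was -0.18, with 43 of 51 under 0. The median of all tested genes was then -0.05, with 9103 of the 16997 that have a gene model under 0.

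The Sm ring, the shared core of U1, U2, U4 and U5, fell in all 7 of its genes, with a median log2 fold change of -0.67. SNRPG was at 79.1, 73.7 and 80.7 CPM in the control libraries and at 43.5, 44.2 and 44.3 CPM in the knockdown libraries. The groups were far apart and the knockdown values lay close together. Its log2 fold change was -0.82 ± 0.05 (SE; edgeR quasi-likelihood, adjusted p = 5.8e-21). SNRPB, which encodes SmB and its splice variant SmB′, went from 340, 357 and 367 CPM to 214, 214 and 204 CPM, a log2 fold change of -0.75 ± 0.03 (SE). SNRPD1 was at 97.8, 99.1 and 99.3 CPM in control and at 60.7, 59.9 and 57.3 CPM in knockdown. It fell by 0.73 on the log2 scale, almost as far as SNRPB. The other 4 genes also fell, SNRPF to -0.67, SNRPD2 to -0.53, SNRPD3 to -0.44 and SNRPE to -0.36. The smallest fall of the ring, in SNRPE, still separated the groups, with control libraries at 44.9 to 47.2 CPM and knockdown libraries at 34.9 to 37.0 CPM. The ring's genes therefore differed in size of change, from 56.6% of control for SNRPG to 77.9% for SNRPE. The ring's share of all counts was 0.0938%, 0.0935% and 0.0963% in control and 0.0685%, 0.0673% and 0.0663% in knockdown (exact permutation p = 0.1, two-sided). All 7 genes were also called lower with library size alone, with a median of -0.52, and all 7 lay under 0 after removal of the trends, with a median of -0.36. Some of the ring's reads may be shared with other genes. Of the 50-base words of the SNRPG transcript, 22.9% occur in transcripts of other genes, and 21.2% of those of SNRPE. SNRPD3 and SNRPB share 24.6% and 20.0% of their exonic bases with other genes. For SNRPD3, 12.6% are shared with GUCD1, which was called lower at -0.61 (group means 162 CPM in control and 106 CPM in knockdown).

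LSM1 rose, whereas all 7 genes of the U6 ring, LSM2 to LSM8, fell. LSM2 to LSM8 form the ring on the 3′ end of U6 RNA in the nucleus. In the cytoplasm, LSM1 takes the place of LSM8, and the ring of LSM1 to LSM7 promotes decapping and decay of mRNA. LSM1 was at 8.99, 9.34 and 8.55 CPM in the control libraries and at 18.6, 19.6 and 17.1 CPM in the knockdown libraries. Every knockdown value was above 17 CPM and every control value under 10 CPM. The rise was 2.06-fold, or 1.04 ± 0.10 (SE) on the log2 scale (edgeR quasi-likelihood, adjusted p = 7.22e-14), on 247 to 303 counts in control and 437 to 551 in knockdown. It was the largest rise among the members. Of the exonic bases of LSM1, 38.5% also belong to other genes, most of them to AC084024.3, which was at 0 in every library.

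The genes for LSM2 to LSM8 all fell, with a median log2 fold change of -0.66. LSM4 fell from 174, 173 and 192 CPM to 104, 115 and 106 CPM. LSM5 was at 59.6, 56.0 and 60.4 CPM in control and 37.1, 33.6 and 36.2 CPM in knockdown. Both were near 60% of their control level, and neither had overlapping groups. LSM2 and LSM7 followed at -0.70 and -0.66, then LSM3 at -0.40 and LSM6 at -0.33. LSM8, the subunit that marks the nuclear ring, had the smallest fall of the 7, from 39.7, 35.5 and 35.9 CPM to 32.7, 29.02 and 30.3 CPM, with a log2 fold change of -0.27 ± 0.07 (SE). With library size alone LSM6 (-0.18) and LSM8 (-0.12) were no longer called, and the other 5 were.

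A ratio of the reads of LSM8 and LSM1 within a library does not depend on scaling. There were 4.42, 3.81 and 4.19 LSM8 reads per LSM1 read in the control libraries and 1.75, 1.48 and 1.77 in the knockdown libraries. On the log2 scale the mean ± SD over 3 libraries was 2.05 ± 0.109 in control and 0.733 ± 0.144 in knockdown, a difference of -1.31 with an exact permutation p = 0.1 (two-sided). Leaving out any 1 library gave -1.23 to -1.37.

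**Figure D2:**
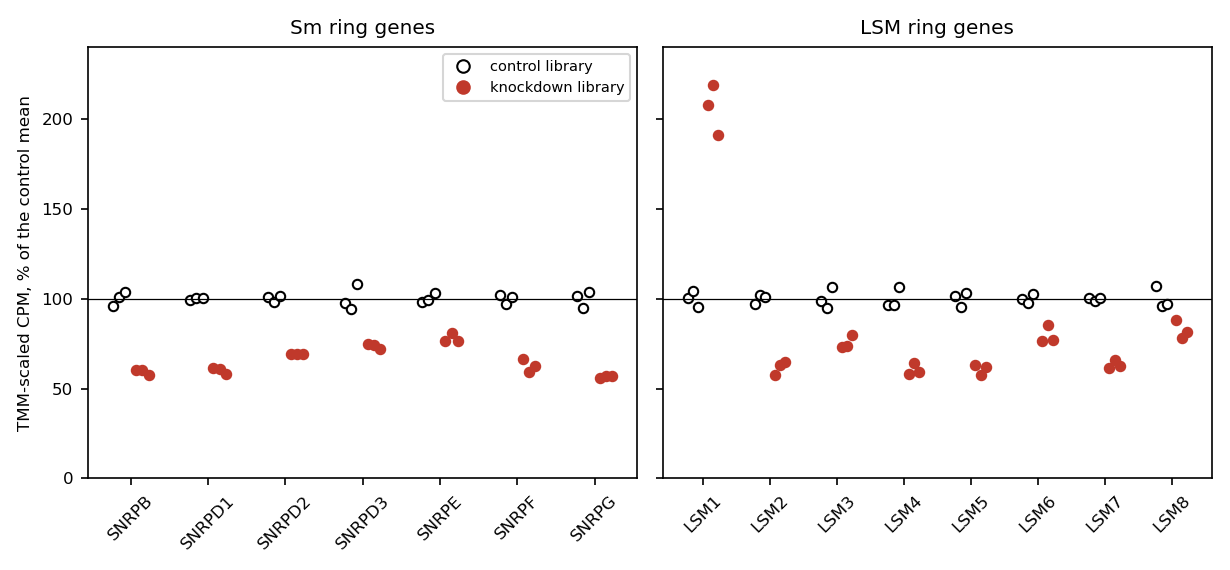
TMM-scaled CPM of each Sm ring gene (left) and LSM gene (right) as a percentage of its control mean (y axis, from 0); each point is 1 library, open for control and red for knockdown. The knockdown points of the 7 Sm genes and of LSM2 to LSM8 lie under 100%, and those of LSM1 lie near 200%.

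**Figure D3:**
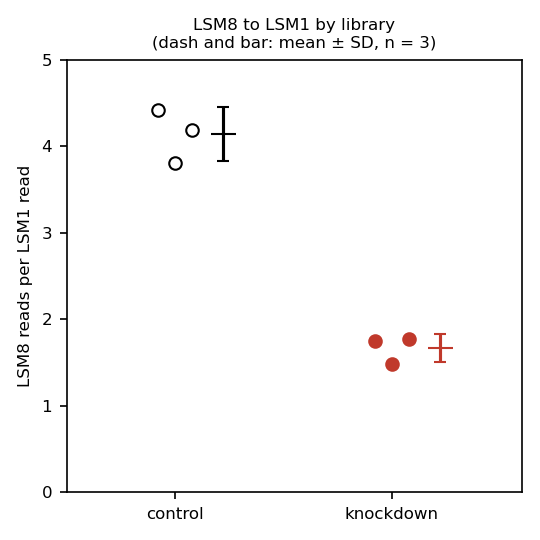
Reads of LSM8 per read of LSM1 in each library (points) with the mean ± SD of 3 libraries (dash and bar). The control libraries lie between 3.81 and 4.42 and the knockdown libraries between 1.48 and 1.77.

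The U1-specific proteins fell by similar amounts. SNRNP70 (U1-70K), which contacts the first stem-loop of U1 RNA, went from 250, 255 and 259 CPM to 186, 179 and 175 CPM, a log2 fold change of -0.50 ± 0.04 (SE). SNRPC (the C protein of U1), which stabilises pairing with the 5′ splice site, was at -0.48, and SNRPA (the A protein of U1) at -0.35. None of these 3 had overlapping groups. After removal of the trends they were nearer to 0, with SNRNP70 at -0.09, SNRPC at -0.16 and SNRPA at -0.13. PRPF39, a U1-associated factor of alternative splicing, was at 30.4, 31.5 and 26.9 CPM in control and 35.9, 28.9 and 33.2 CPM in knockdown. Its groups overlapped and it was not called, at 0.14 ± 0.07 (SE) on the log2 scale (edgeR quasi-likelihood, adjusted p = 0.0923). It was called higher with library size alone (0.30), with upper-quartile factors (0.20) and without knockdown replicate 2 (0.21). FKBP3 shares 13.2% of the exonic bases of PRPF39 and was called lower at -0.27.

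All 11 genes of the U2 snRNP fell, with a median log2 fold change of -0.44, but the size of the fall differed widely between subunits. SNRPA1 (the A′ protein of U2), which with SNRPB2 (the B″ protein) binds a stem-loop of U2 RNA, had the largest fall, from 73.1, 76.0 and 74.1 CPM to 39.2, 39.8 and 41.0 CPM. This was a log2 fold change of -0.90 ± 0.05 (SE), to 53.8% of control, though 41.5% of the 50-base words of its transcript occur in transcripts of other genes. SNRPB2 fell by 0.49. Of the SF3a complex, SF3A3 fell from 197, 208 and 204 CPM to 123, 133 and 119 CPM, a log2 fold change of -0.70. SF3A1 was at -0.48 and SF3A2 at -0.44. PLEKHJ1 shares 12.7% of the exonic bases of SF3A2 and was called lower at -1.0. Of the SF3b complex, which holds the branch point, SF3B5 was at -0.45, SF3B2 at -0.42, SF3B6 at -0.37, SF3B3 at -0.34 and SF3B4 at -0.20. SF3B1, the scaffold of SF3b, was at 467, 471 and 442 CPM in control and at 413, 406 and 437 CPM in knockdown. The highest knockdown value was close to the lowest control value, and the fall of 0.14 turned to 0.02, not called, with library size alone. SF3B4 was likewise not called on that scale (-0.04). After removal of the trends the U2 median was -0.17, with SNRPA1 at -0.74 and SNRPB2 at -0.49, but SF3A2 at -0.08, SF3B5 at -0.05, SF3B1 at 0.00 and SF3B4 at 0.03.

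U2AF is the heterodimer that marks the 3′ splice site for U2. Its large subunit U2AF2, which binds the polypyrimidine tract, fell from 330, 335 and 343 CPM to 240, 261 and 253 CPM, a log2 fold change of -0.42 ± 0.03 (SE). After removal of the trends it was at -0.03. The small subunit U2AF1 was the 1 member that did not pass the filter, with counts of 2, 1 and 1 in control and 1, 2 and 0 in knockdown. Of the 50-base words of its transcript, 96.8% also occur in U2AF1L5, an entry annotated on the same chromosome in GRCh38. Whether U2AF1L5 is a gene of its own was not examined. How reads with several alignments were counted is not given in the sources used here. U2AF1L5 had 238 to 374 counts in each library and was not called, at a log2 fold change of 0.15 ± 0.12 (SE). These rows do not measure U2AF1, and a ratio of U2AF2 to U2AF1 was not computed.

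The U4/U6 proteins diverged. PRPF4, which forms a complex with PRPF3 on the U4/U6 duplex, went from 135, 136 and 134 CPM to 63.3, 63.3 and 59.2 CPM. Each knockdown library held under 50% of any control value. The log2 fold change was -1.12 ± 0.04 (SE; edgeR quasi-likelihood, adjusted p = 9.36e-31), and -1.04 after removal of the trends. Its partner PRPF3 fell by only 0.18, from 72.0, 76.2 and 78.0 CPM to 64.3, 71.1 and 64.6 CPM, and was not called with library size alone (-0.02). PRPF31, which binds the U4 stem-loop, fell by 0.41, with 32.0% of its exonic sequence also part of other genes. SART3, which anneals U4 and U6 RNA when the particles are recycled, was at 85.1, 85.8 and 83.2 CPM in control and at 93.0, 95.1 and 92.2 CPM in knockdown. The groups did not overlap, and SART3 rose by 1.10-fold, a log2 fold change of 0.14 ± 0.04 (SE).

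Among the U5 proteins the falls were graded. SNRNP40, a WD-repeat protein, fell from 102, 100 and 104 CPM to 69.5, 67.9 and 66.1 CPM, a log2 fold change of -0.59. PRPF6, which bridges U5 and U4/U6, was at -0.42, the GTPase EFTUD2 at -0.37 and SNRNP200, the helicase that unwinds U4 from U6, at -0.30. PRPF8, the scaffold of the catalytic centre, was at 564, 542 and 552 CPM in control and at 499, 524 and 510 CPM in knockdown. Its fall of 0.11 was not called with upper-quartile factors (-0.05) and changed sign with library size alone (0.04, not called) and after removal of the trends (0.09). DDX23, the helicase that releases U1 from the 5′ splice site, was at 224, 235 and 222 CPM in control and at 226, 224 and 210 CPM in knockdown. Its groups overlapped and it was not called, at -0.04 ± 0.04 (SE), though with library size alone it was called higher at 0.11. It was at 0.02, not called, with upper-quartile factors and at 0.15 after removal of the trends.

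Of the 5 factors that join with the tri-snRNP, 3 fell and 2 were not called. SART1 and USP39, both needed for a stable tri-snRNP, fell to -0.39 and -0.32, close to the member median. PRPF4B, a kinase of tri-snRNP proteins, was called lower at -0.09 although its groups overlapped. That call was lost when control replicate 1 or 2 or knockdown replicate 2 was left out (-0.08 in each) and with upper-quartile factors (-0.03), and was at 0.06, not called, with library size alone and at 0.00 after removal of the trends. PRPF38A was at 54.3, 51.5 and 55.0 CPM in control and 47.9, 49.9 and 50.1 CPM in knockdown. Its groups did not overlap, but at -0.12 it missed the threshold (edgeR quasi-likelihood, adjusted p = 0.0517). It passed in 6 alternatives, among them without control replicate 2 (-0.16), without knockdown replicate 2 or 3 (-0.14 in each) and thinned to the smallest library (-0.15), and was at 0.03, not called, with library size alone. SNRNP27 was not called, at 0.03 ± 0.08 (SE), was called higher with library size alone (0.18), and was at -0.02 after removal of the trends. MXD1 shares 10.4% of the exonic bases of SNRNP27 and was called higher at 0.86. The median of these 5 genes was -0.12, and 0.03 with library size alone.

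The 3 members from the minor U11/U12 particle, which recognises a rare class of introns, did not move together. Further factors of the minor spliceosome, described below, are not counted here or in the ratio that follows. SNRNP25 had the largest fall of all members, from 29.6, 29.2 and 28.8 CPM to 13.3, 12.03 and 12.5 CPM. The groups differed by far more than their spread, and SNRNP25 was 2.31-fold lower in knockdown. Its log2 fold change was -1.21 ± 0.08 (SE; edgeR quasi-likelihood, adjusted p = 1.26e-19). POLR3K shares 5.0% of the exonic bases of SNRNP25 and was called lower too, at -1.84 (group means 14.2 CPM in control and 3.97 CPM in knockdown). SNRNP35, the counterpart of U1-70K in the U11 particle, rose from 9.08, 9.18 and 8.65 CPM to 11.3, 11.2 and 13.5 CPM, a log2 fold change of 0.42 ± 0.11 (SE). Of its exonic bases, 40.1% also belong to RILPL1, which fell. The median of the 3 genes was 0.02, with -0.01 in DESeq2 and -0.08 after removal of the trends. SNRNP48 was at 35.4, 34.9 and 33.8 CPM in control and 35.8, 35.5 and 34.2 CPM in knockdown, and was not called at 0.02 ± 0.06 (SE), though it was called higher with library size alone (0.17), and was at -0.08 after removal of the trends. The reads of these 3 genes, set against the summed reads of SNRPA, SNRPC and SNRNP70 in the same library, had a log2 ratio of -2.76, -2.80 and -2.86 in control and -2.64, -2.64 and -2.60 in knockdown. The groups did not overlap, with a difference of 0.178 and an exact permutation p = 0.1 (two-sided).

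Of the factors that act at the catalytic stage, PRPF19, the ubiquitin ligase of the PRPF19 complex, fell by 0.18, from 171 to 179 CPM in control to 154 to 159 CPM in knockdown. It was not called with library size alone (-0.03) and was at 0.06 after removal of the trends. PRPF18, a factor of the second step of splicing, was the lowest of the tested members at 4.22, 4.01 and 5.47 CPM in control and 3.28, 3.08 and 3.56 CPM in knockdown. Its log2 fold change was -0.46 ± 0.18 (SE). The call was lost when control replicate 3 (-0.32) or knockdown replicate 2 (-0.42) was left out, with library size alone (-0.31) and in DESeq2 (-0.49). Of its exonic bases, 48.5% also belong to other genes, and 42.0% are shared with AL157392.5, which had group means of 0 CPM.

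Levels differed between subunits of the same particle when set per transcript length, as CPM per kilobase of 1 representative transcript per gene. In control, SNRPD2 had 327 ± 5.65 and SNRPB 307 ± 12.2 CPM per kilobase (mean ± SD, n = 3), followed by SF3B5 at 273 ± 5.57 and U2AF2 at 198 ± 3.93. These 4 genes kept the top places in knockdown, where SF3B5 at 201 ± 3.64 stood above SNRPB at 183 ± 4.81 CPM per kilobase. In the Sm ring the levels then stepped down from SNRPG at 124.5 ± 5.86 through SNRPE and SNRPF, which lay within their spread at 48.7 ± 1.33 and 47.3 ± 1.22, to SNRPD3 at 34.5 ± 2.43 CPM per kilobase. SNRPD1 came last at 20.1 ± 0.173 CPM per kilobase, on a transcript model of 4909 bases, so its place rests on that model. The U5 proteins PRPF6, SNRNP200 and EFTUD2 lay close together in control, at 88.1 ± 0.304, 86.8 ± 0.832 and 85.0 ± 1.78 CPM per kilobase, and remained so in knockdown at 65.9 ± 1.97, 70.7 ± 0.938 and 65.7 ± 1.17. In knockdown LSM1, at 16.1 ± 1.09 CPM per kilobase, stood above LSM3, at 10.3 ± 0.507, where in control it was lower, at 7.81 ± 0.344 against 13.7 ± 0.823. That order rests on a transcript model of 3815 bases for LSM3, 3003 of them 3′ UTR. The lowest levels in control were those of PRPF18, SNRNP35, LSM6 and LSM1, at 2.66 to 7.81 CPM per kilobase.

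**Figure D4:**
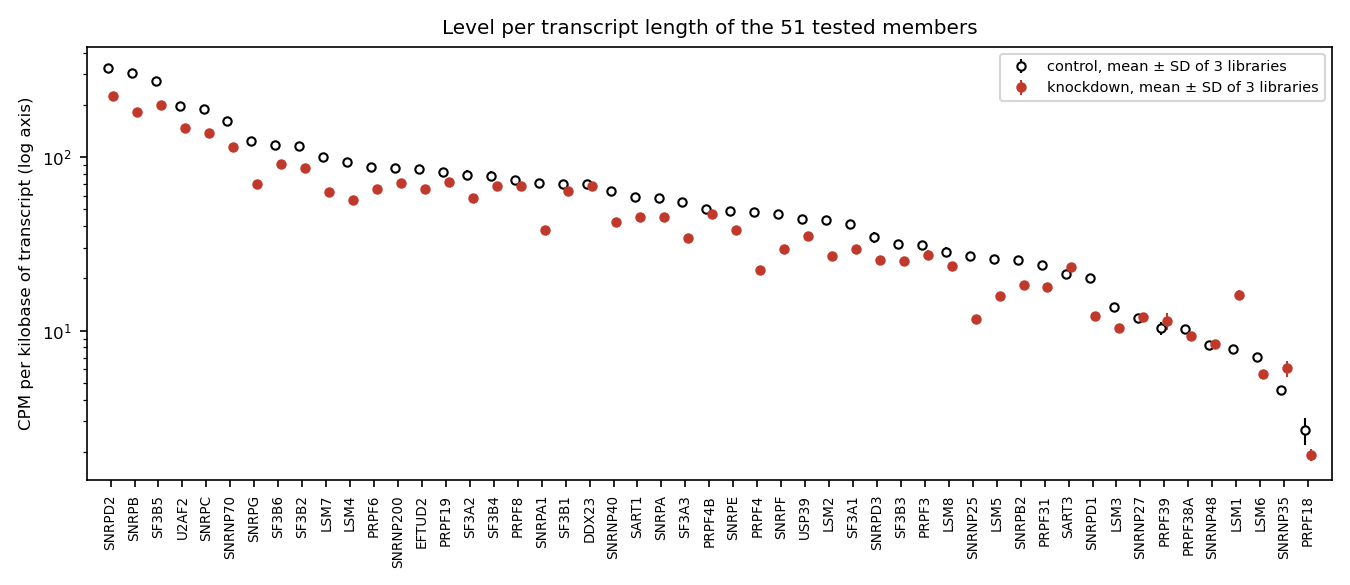
TMM-scaled CPM per kilobase of transcript (log axis) for the 51 tested genes in order of the control level; open points are control and red points knockdown, each the mean ± SD of 3 libraries. The genes span from 327 to 2.66 CPM per kilobase in control, and LSM1 is the gene whose knockdown point rises furthest above its control point.

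Related genes of splicing were described from 6 lists with 97 genes, of which 95 were tested. Over these, 49 fell (51.6%) and 23 rose (24.2%), around a median of -0.12. Of all 17223 tested genes, 30.9% were called lower and 30.7% higher, with a median of 0.03. With library size alone 32 of the 95 were lower and 37 higher. On that scale 3855 of all 17223 tested genes were lower and 6986 higher. Further U1 and U2 factors were lower in 17 of 19 genes and higher in 1, with a median of -0.35. LUC7L2, a U1-associated protein, fell by 0.94, PHF5A, the SF3b subunit that is not among the 52 genes, fell by 0.84, and TIA1, which helps U1 to bind, rose by 0.16. With library size alone 13 were lower and 1 higher. Of 17 tested genes for snRNP assembly, 11 fell and 3 rose, and the median was -0.30. With library size alone 9 were lower and 4 higher. GEMIN5, which recognises snRNAs for the SMN complex, fell from 133.5 ± 2.39 to 59.6 ± 3.44 CPM (mean ± SD, n = 3), or -1.16 on the log2 scale. WDR77, which with PRMT5 methylates the tails of Sm proteins, fell by 0.79, and 36.5% of its exonic bases are shared with other genes. GEMIN2, which holds the Sm proteins before they are loaded, rose from 6.56 ± 0.512 to 13.8 ± 2.62 CPM, or 1.07 on the log2 scale, and TGS1, which trimethylates the cap of snRNAs, rose by 0.46.

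The lists nearer to the catalytic stage and to the minor spliceosome had medians above 0. Beside the counts that follow, 30.9% of all tested genes were called lower and 30.7% higher. Of 23 genes of the PRPF19 complex and the catalytic stage, 11 rose and 6 fell, around a median of 0.13, and with library size alone 15 were higher and 2 lower. RBM22, which binds U6 RNA and the pre-mRNA in the activated spliceosome, rose from 54.7 ± 1.27 to 124 ± 6.04 CPM (mean ± SD, n = 3), or 1.18 on the log2 scale. SYF2 rose by 0.89, while the helicase DHX16 fell by 1.01 and CDC5L, a core partner of PRPF19, fell by 0.34. Of 8 further factors of the minor spliceosome, 4 rose and 1 fell, with a median of 0.27. ZRSR2, which recognises the 3′ splice site of minor introns, rose by 0.97, CENATAC rose by 0.85, and ZCRB1 fell by 0.22 but was not called with library size alone, where 6 genes of the list were higher. Of 13 further tri-snRNP and B complex factors, 6 fell and 1 rose, around a median of -0.11 that turned to 0.04 with library size alone (3 lower and 5 higher). SMU1 (-0.46) and SNU13 (-0.43), which binds U4 RNA, fell, and ZMAT2 rose by 0.23.

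The last list had 15 tested genes, relatives of the Sm, LSM and U2AF1 genes and partners of LSM1 in mRNA decay. Of these, 8 fell (53.3%) and 3 rose (20.0%), beside 30.9% and 30.7% of all tested genes. The median of the list was -0.14, and 0.02 with library size alone (5 lower and 6 higher). U2AF1L4 and U2AF1L5 are in the list and were not called. LSM11, which replaces a canonical Sm protein in the U7 particle for histone mRNA, rose from 17.2 ± 0.962 to 31.2 ± 0.993 CPM (mean ± SD, n = 3), or 0.86 on the log2 scale. XRN1, the exonuclease that degrades decapped mRNA, rose by 0.62. The other decay partners in the list did not move with it as a group. DCP1A (-0.34), EDC4 (-0.29), DCP2 (-0.26) and PATL1 (-0.24) were called lower. DCP1B was called higher at 0.30, though its groups overlapped, and DDX6 (-0.04) and EDC3 (0.01) were not called. LSM14B (-0.55) and LSM12 (-0.54) fell. The differences between these lists and the 52 genes were not tested. The snRNAs themselves were barely covered: of 1900 rows annotated as snRNA, 465 had a count and 4 passed the filter, all with U6 pseudogene names and group means of at most 1.04 CPM. Of these, RNU6-316P rose, on 5 to 7 counts in control and 14 to 30 in knockdown, at 2.10 ± 0.50 (SE) on the log2 scale (edgeR quasi-likelihood, adjusted p = 2.58e-04).

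**Figure D5:**
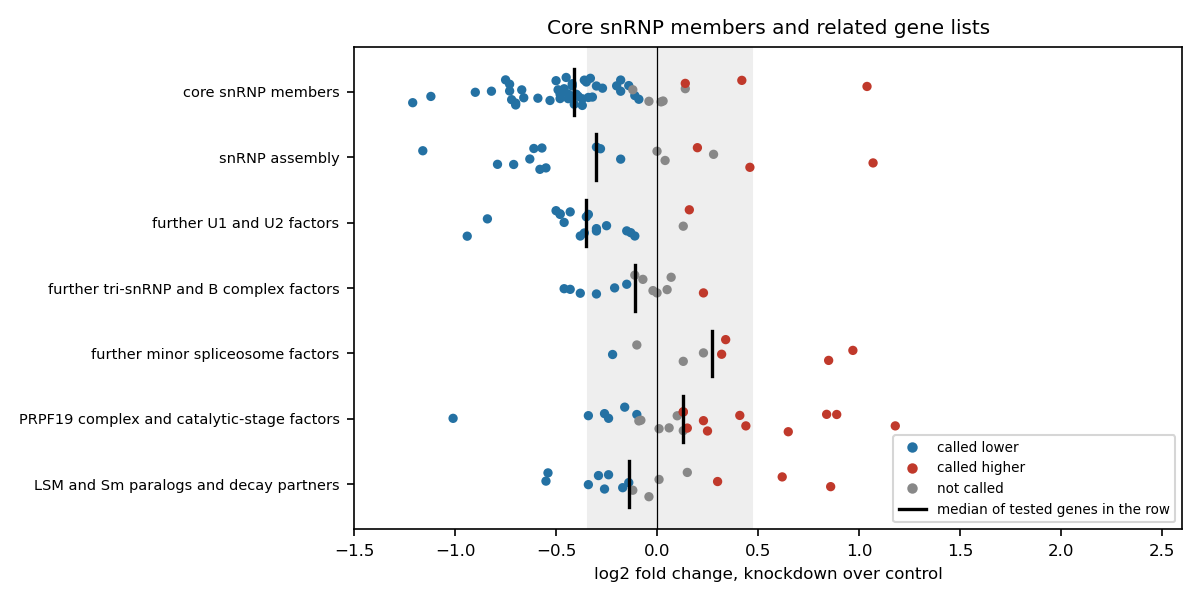
Log2 fold change of knockdown over control (x axis) for each tested gene (points) of the core snRNP set and of 6 related lists (rows); blue is called lower, red called higher, grey not called, black bars are medians, and the shaded band is the middle range of all tested genes (quartiles, -0.34 to 0.47). The core set has its median at -0.41, and the lists for minor spliceosome factors and for the PRPF19 complex have theirs at 0.27 and 0.13; on library size alone the medians of the further tri-snRNP factors and of the LSM and Sm paralogs change sign.

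The 3′ UTRs of the members were searched for CTATTGA, on the transcript strand only. This word was picked out in an earlier scan of the same fold changes, so its presence in genes that fell is no independent support. It occurred in 6 of the 51 tested members (11.8%) and in 7.87% of 13171 tested protein-coding genes with an annotated 3′ UTR. Each site is written 5′ to 3′ with 10 bases on either side and the word in capitals, from GENCODE v29 on GRCh38.
PRPF4 (chr9:113292518-113292544, plus strand): tcacctcttcCTATTGAgtttgcttgg
LSM5 (chr7:32486751-32486777, minus strand): ccatgaactcCTATTGAaaacaaacaa
SNRPB2 (chr20:16741853-16741879, plus strand): atgtttaaggCTATTGAttcagtcctc
SNRPD3 (chr22:24572246-24572272, plus strand): aatagcacagCTATTGAtgagatttta
SF3B1 (chr2:197390938-197390964, minus strand): gtaaaactgcCTATTGAcactttagga
PRPF38A (chr1:52417799-52417825, plus strand): tagaagtcacCTATTGAaaactggaat
The genes are listed from the lowest log2 fold change, -1.12 for PRPF4, through -0.72, -0.49, -0.44 and -0.14 to -0.12 for PRPF38A, and 5 of the 6 were called lower, beside 43 of all 51 tested members and 462 of the 1037 tested protein-coding genes with the word. The median log2 fold change of members was -0.46 with the word and -0.40 without it, and over all those protein-coding genes it was -0.11 with and -0.02 without. SNRNP25, SNRPA1 and SNRPG, which with PRPF4 had the 4 largest falls, did not carry the word in the 3′ UTR of the transcript searched.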

How the data were processed

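The authors deposited 1 table of raw read counts per Ensembl gene, 1 column for each library, not normalized. The tools listed per the submitters' processing notes were featureCounts 2.0.1, STAR 2.7.0d, Trim Galore 0.6.6 and DESeq2 1.30.1, and the build hg38. Not given in the sources used here were the annotation, the strand setting and the handling of multiply aligned reads, so counts of overlapping or near-identical genes are uncertain.

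The 52 members and the related lists were chosen with earlier results of these data known. Genes were filtered with filterByExpr (minimum count 10) in edgeR 4.0.16 under R 4.3.3 and scaled by TMM. Knockdown and control, 3 libraries each, were compared by the quasi-likelihood test of edgeR, with robust dispersions, fitted to 17223 genes, with Benjamini-Hochberg adjustment over all of them and a threshold of 0.05. SEs derive from the test statistic. All members are named. Of each related list, called genes with a mean log2 CPM (prior count 2) of at least 1 were ranked. The 2 that rose most and the 2 that fell most are named. The other decay partners of LSM1, U2AF1L4 and U2AF1L5 are named as well. Gene models, exonic overlap and transcript length came from GENCODE v29 on GRCh38, which held 16997 of the tested genes. Trends were cubic polynomials. Alternatives were 3 other scalings, no filter, DESeq2 1.42.0, a replicate block, removal of trends, leaving out each library, and thinning.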

Additional observations from a re-analysis of the deposited data

How the results depend on the processing

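Of the settings tried, 1 was chosen after seeing the data, the thinning of all libraries to the smallest total. Calls were not made after removal of trends. In the settings with calls, the 43 members lower became 34 with library size alone and 41 to 44 otherwise, and the 3 members higher became 7 with library size alone and 3 or 4 otherwise. The member median of -0.41 was -0.35 with upper-quartile factors, -0.25 with library size alone and -0.18 after removal of trends, and -0.39 to -0.43 otherwise. Of the related genes, 37 were higher and 32 lower with library size alone, against 23 and 49. Signs changed with library size alone for SF3B1 (0.02), PRPF8 (0.04), DDX23 (0.11), PRPF38A (0.03), PRPF4B (0.06) and the median of the tri-snRNP and B complex genes (0.03), and after removal of trends for SF3B4 (0.03), PRPF8 (0.09), PRPF19 (0.06), DDX23 (0.15), SNRNP27 (-0.02), SNRNP48 (-0.08) and the median of the minor U11/U12 genes (-0.08). Signs of values within 0.04 of 0 also changed for DDX23 with upper-quartile factors (0.02), for SNRNP48 (-0.01) and the minor U11/U12 median (-0.01) in DESeq2, and for SNRNP27 without control replicate 1 (-0.01) or knockdown replicate 2 (-0.03). Leaving out 1 library gave 42 to 44 members lower, 3 or 4 higher, 43 to 49 related genes lower and 19 to 23 higher. With the replicate number as a block, 43 members were lower and 3 higher, and no member changed its call. Same-numbered libraries did not deviate together (correlations -0.000751, -0.00642 and -0.0235), so the numbers give no sign of pairing.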
